A study of Sus scrofa with 12 samples.

Results

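The genes described here are CARTPT, which encodes the prepropeptide of CART (cocaine- and amphetamine-regulated transcript), MC4R, which encodes the melanocortin 4 receptor, and ASIP, which encodes agouti signalling protein. They were chosen as genes of 1 hunger-regulating pathway, with earlier results of these data known, among them the MC4R pattern in males. They are 3 of the 13664 gene symbols on the array, and each is represented by every probe set whose symbol in the array's annotation equals its own. That gave 4 of the 47845 probe sets in the deposited table: 2 for CARTPT, called the brighter and the dimmer probe set below, and 1 each for MC4R and ASIP. The study measured hypothalamus RNA of 12 pigs, each 140 days old, with 1 array per pig. Of these, 6 pigs were labelled high and 6 low in feed efficiency, the growth obtained from a given amount of feed, and each group held 3 males and 3 females. Every array carries its own pig identifier, so the replicates are separate animals. The labels give neither breed, diet and feeding state nor the part of the hypothalamus that was dissected.

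CART peptides are released by hypothalamic neurons and reduce feeding when given into the rodent brain. In rodents, many of the neurons of the arcuate nucleus that make the POMC precursor also make CART, and so do neurons of the lateral hypothalamus that make melanin-concentrating hormone. The POMC product alpha-MSH activates MC4R, a receptor coupled to the stimulatory G protein, on neurons of the paraventricular nucleus and elsewhere, and loss of MC4R gives obesity in mice and humans. AGRP, made in other arcuate neurons, is the brain's natural antagonist of this receptor. ASIP is the related antagonist of the skin, where it acts on MC1R in pigment cells, and in mice its misplaced expression in other tissues also blocks MC4R and gives obesity.

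Signals are log2 values as deposited, so 1 unit is a doubling. All 12 arrays resembled each other closely, with medians of 4.35 to 4.42 and correlations between arrays of 0.974 to 0.982 over all probe sets. Of 8 hypothalamus markers 7 were named on the array, with a mean signal of 8.08. The vasopressin and oxytocin genes AVP (11.55) and OXT (11.80), HCRT (8.29) and PMCH (8.04) lay above all the background probe sets described next, and AGRP (4.65), SIM1 (5.92) and NKX2-1 (6.33) lay within their span. Of the 7 anterior pituitary markers named, the hormone genes TSHB and FSHB and the factor POU1F1 fell among the dimmest 25% of probe sets, while GH1 read 4.99, PRL 5.47, LHB 5.26 and CGA 3.48. The level of each gene was judged against 69 background probe sets, control features made without a pig target, whose means ran from 1.30 to 7.49 with a median of 2.35.

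CARTPT stood clear of the background in every pig. Its brighter probe set had a mean of 9.20 ± 0.30 (SD, n = 12) and lay above all 69 background probe sets on all 12 arrays, with 97.9% of the array's probe sets dimmer. Its dimmer probe set, at 8.68 ± 0.26 (SD, n = 12), also lay above all 69 on all 12 arrays.

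MC4R and ASIP lay within the span of the background. MC4R had a mean of 4.94 ± 0.30 (SD, n = 12), above 45 of the 69 background probe sets, and 57.7% of the array's probe sets were dimmer. ASIP had a mean of 3.71 ± 0.22 (SD, n = 12), above 39 of the 69, and 41.7% of probe sets were dimmer. On no array did either gene exceed every background probe set. Background signal rose with the G and C count that stands in the background probes' names. MC4R was brighter than the mean of background probes with 17 such bases (4.61) and dimmer than that with 18 (5.42), while ASIP fell between the means for 15 (2.87) and 16 (3.97). The base composition of the MC4R and ASIP probes was not used here, so how much of either signal is background cannot be told. Markers of pigment cells, on which ASIP acts in skin, were mostly dim: of 4 named, TYR, TYRP1 and MLANA fell among the dimmest 25%, and DCT had a mean of 6.55. All 4 probe sets of CARTPT, MC4R and ASIP passed the later filter, which kept 35791 probe sets with a mean above 2.43.

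**Figure D1:**
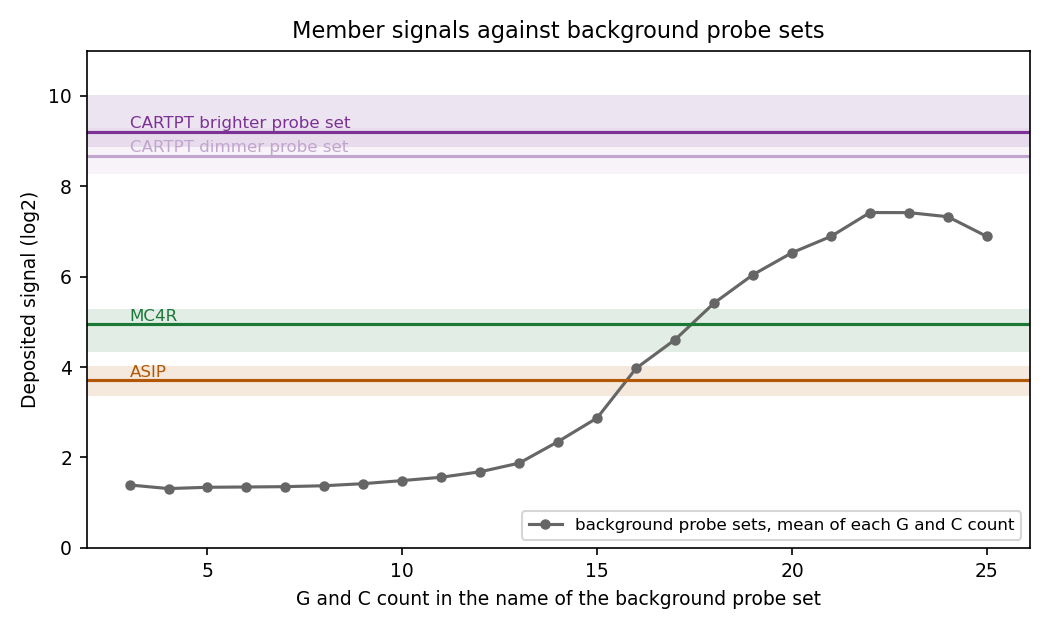
Deposited log2 signal (vertical axis) of background probe sets against the G and C count in their names, grey points being the mean of each count. Coloured lines mark the mean of each CARTPT, MC4R and ASIP probe set over 12 pigs and the shaded bands run from the lowest to the highest pig. Both CARTPT bands lie above the whole background curve, and the MC4R and ASIP bands cross it.

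Among the pigs, CARTPT varied more than most probe sets of similar brightness, and 1 animal stood far above the rest. The brighter probe set read 8.92, 10.01 and 8.98 in the 3 high-efficiency males and 9.01, 9.30 and 9.12 in the 3 low-efficiency males. It read 9.11, 8.87 and 9.34 in the high-efficiency females and 9.33, 9.16 and 9.28 in the low-efficiency females. High-efficiency male replicate 2, at 10.01, stood above every other pig, while the other 11 lay between 8.87 and 9.34 and all groups overlapped.

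The dimmer CARTPT probe set placed the same male on top. It read 8.54, 9.29 and 8.41 in high-efficiency males, 8.46, 8.85 and 8.73 in low-efficiency males, 8.78, 8.28 and 8.85 in high-efficiency females, and 8.52, 8.71 and 8.67 in low-efficiency females. The distance between the highest and the lowest pig was 2.20-fold on the brighter and 2.01-fold on the dimmer probe set. Of the 998 probe sets whose mean lay within 0.5 of the brighter probe set, 97.5% varied less (SD 0.30 against their median of 0.12). For the dimmer probe set, 94.8% of 1696 varied less. Across the 12 pigs the 2 CARTPT probe sets correlated with Pearson's r = 0.880 (permutation p = 0.00067) and Spearman's rho = 0.734 (permutation p = 0.0084). Without high-efficiency replicate 2, r was 0.715 (permutation p = 0.016, n = 11), and without the 2 pigs farthest from the median it was 0.598 (permutation p = 0.070, n = 10), so the significance of the relation rests in part on those pigs. The brighter probe set exceeded the dimmer by 0.53 ± 0.14 (SD, n = 12), in every pig, with a range of 0.33 to 0.81.

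MC4R varied chiefly between groups, not within them. Its signal was 4.71, 4.43 and 4.34 in the 3 high-efficiency males and 4.94, 5.04 and 5.16 in the 3 low-efficiency males. In females it was 5.15, 5.29 and 5.03 with high and 4.95, 5.21 and 5.07 with low feed efficiency. The 3 high-efficiency males were the 3 lowest pigs of the 12, and the other 9 lay together between 4.94 and 5.29. Over all pigs the SD of 0.30 exceeded that of 66.1% of the 6376 probe sets of similar brightness. Once the means of the 4 groups of 3 were removed the SD was 0.14, larger than that of only 10.9% of them.

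ASIP showed no grouping of that kind. Its signal was 3.99, 3.70 and 3.86 in high-efficiency males, 3.77, 3.41 and 3.73 in low-efficiency males, 4.02, 3.67 and 3.36 in high-efficiency females, and 3.75, 3.37 and 3.86 in low-efficiency females. The highest and the lowest pig were both high-efficiency females, and the distance between them was 1.58-fold. Its SD of 0.22 exceeded that of 25.7% of the 5963 probe sets of similar brightness.

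**Figure D2:**
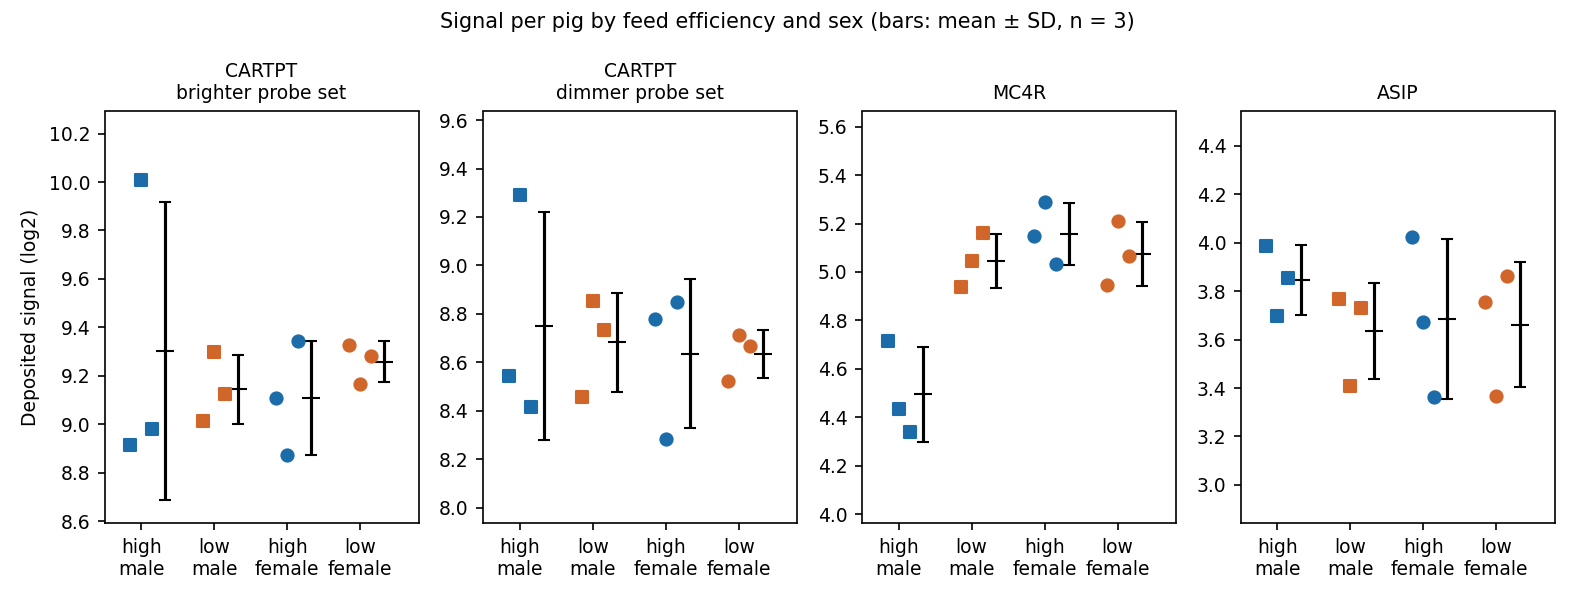
Deposited log2 signal (vertical axes, all of the same span) of each CARTPT, MC4R and ASIP probe set in 12 pigs, 1 point per pig, by feed efficiency and sex, with bars for the mean ± SD of each 3 pigs. High-efficiency male replicate 2 stands alone at the top of both CARTPT panels, and the 3 high-efficiency males lie below all other pigs for MC4R.

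The main question of the study was whether pigs of low and high feed efficiency differ. For CARTPT, MC4R and ASIP no difference passed the test: with limma on all 35791 probe sets and sex as a term, 0 of the 4 probe sets had a Benjamini-Hochberg adjusted p under 0.05, against a background of 0% (0 of 35791 called and 2201 at an unadjusted p under 0.05). None of the 4 had an unadjusted p under 0.05 either. In a piece of tissue, fewer cells that make a transcript and less transcript per cell cannot be told apart, and this holds for every difference given here.

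The brighter CARTPT probe set had the same mean in both groups, 9.20 ± 0.43 with high and 9.20 ± 0.12 with low feed efficiency (SD, n = 6 each). The low minus high difference was -0.0029 ± 0.18 (SE; limma adjusted p = 0.998), and its 95% interval of -0.39 to 0.38 leaves room for a change from 0.763-fold to 1.30-fold. The dimmer probe set read 8.69 ± 0.36 and 8.66 ± 0.15, a difference of -0.03 ± 0.16 (SE; 95% interval -0.37 to 0.30, limma adjusted p = 0.977). Exact permutation of the feed efficiency labels within each sex gave p = 0.99 for the brighter and 0.84 for the dimmer probe set (two-sided, 400 reassignments, unadjusted).

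MC4R averaged 4.83 ± 0.39 in high-efficiency and 5.06 ± 0.11 in low-efficiency pigs (SD, n = 6 each). High-efficiency pigs ran from 4.34 over a median of 4.87 to 5.29 and low-efficiency pigs from 4.94 over 5.06 to 5.21, so that the low-efficiency group lay inside the range of the other. The difference was 0.24 ± 0.13 (SE), or 1.18-fold with a 95% interval of 0.970-fold to 1.43-fold (limma adjusted p = 0.814, exact permutation p = 0.115, unadjusted). ASIP averaged 3.77 ± 0.24 and 3.65 ± 0.21, a difference of -0.12 ± 0.13 (SE; 95% interval -0.40 to 0.17, limma adjusted p = 0.885, exact permutation p = 0.405, unadjusted).

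The pig identifiers fall into a lower run, with 8 pigs and every male, and a higher run, with 4 females. What the runs stand for is not stated. MC4R was higher by 0.36 with low feed efficiency in the lower run (4 against 4 pigs) and differed by -0.02 in the higher run (2 against 2). ASIP differed by -0.23 in the lower and 0.10 in the higher run, and the brighter CARTPT probe set by -0.06 and 0.12. Among females alone, MC4R averaged 5.05 in the 2 pigs of the lower and 5.15 in the 4 of the higher run, and ASIP 3.89 and 3.57.

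Within each sex the MC4R groups were arranged differently. In males it averaged 4.49 ± 0.20 with high and 5.05 ± 0.11 with low feed efficiency (SD, n = 3 each), 1.47-fold higher in the low-efficiency pigs with a 95% interval of 1.20-fold to 1.79-fold. In females it averaged 5.16 ± 0.13 with high and 5.07 ± 0.13 with low feed efficiency, a difference of -0.08 ± 0.13 (SE). In order of level the groups ran from high-efficiency males through low-efficiency males and low-efficiency females to high-efficiency females. Only the step from the first to the second exceeded the spread between pigs; the other 3 groups overlapped.

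Neither within-sex value nor the difference between the sexes passed the adjusted test. In males the MC4R difference of 0.55 ± 0.13 (SE) ranked 141 of 35791 by p, with a limma adjusted p of 0.358. There limma called 3 probe sets (0.00838%), with 3156 at an unadjusted p under 0.05. Exact permutation gave p = 0.1 in males, the smallest value that 3 against 3 allows, and p = 0.5 in females, where limma called 0 probe sets (0%, with 1497 at an unadjusted p under 0.05). The interaction, the female minus the male difference, was -0.63 ± 0.18 (SE; 95% interval -1.04 to -0.23), ranking 243 with a limma adjusted p of 0.779, and 0 probe sets (0%) were called, with 2174 at an unadjusted p under 0.05. Of the 35791 probe sets, 6.68% had every low-efficiency male above every high-efficiency male, as MC4R did. Leaving out 1 pig at a time kept the MC4R difference in males between 0.47 and 0.66. As the groups of males did not overlap, no such omission could change its sign, and omitting a female leaves it as it was.

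Some other measures also differed between the groups of males. The mean of the 5 neuron markers named was 8.61 to 8.65 in high-efficiency and 8.70 to 8.85 in low-efficiency males, a difference of 0.15 with no overlap. Of the 5, 4 were higher with low feed efficiency (ELAVL4 by 0.57, SNAP25 by 0.23, SYT1 by 0.17 and STMN2 by 0.08) while RBFOX3 differed by -0.31. None of them passed the adjusted test in males (lowest limma adjusted p = 0.364, for ELAVL4). Among tested probe sets, 6.68% had every low-efficiency male above every high-efficiency male. All other marker sets overlapped in males, though endothelium (-0.27), choroid plexus (-0.22) and anterior pituitary (-0.20) differed by more. The array medians of the males did not overlap, at 4.39 to 4.42 with high and 4.35 to 4.37 with low feed efficiency. The mean of the background probe sets did, at 3.63 to 3.76 and 3.64 to 3.66. In females the neuron markers averaged 0.17 higher with low feed efficiency, with overlap, and most of this came from RBFOX3, higher by 0.83. ELAVL4 was higher by 0.09, STMN2 by 0.08 and SYT1 by 0.01, while SNAP25 differed by -0.16. MC4R differed by -0.08 in females. With all array medians made equal the MC4R difference in males was 0.60. The part of the neuron markers in it was not tested.

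For CARTPT and ASIP every within-sex difference had a 95% interval that included 0. The brighter CARTPT probe set differed by -0.16 ± 0.25 in males and 0.15 ± 0.25 in females (SE), and the value in males became 0.20 without high-efficiency replicate 2. The dimmer probe set differed by -0.07 ± 0.23 in males and -0.0015 ± 0.23 in females. ASIP differed by -0.21 ± 0.19 in males, where the 3 high-efficiency pigs at 3.70 to 3.99 overlapped the 3 low-efficiency pigs at 3.41 to 3.77, and by -0.02 ± 0.19 in females. The interactions were 0.31 ± 0.36 and 0.07 ± 0.32 for the brighter and dimmer CARTPT probe sets and 0.19 ± 0.27 for ASIP (SE), with limma adjusted p from 0.938 to 0.987.

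**Figure D3:**
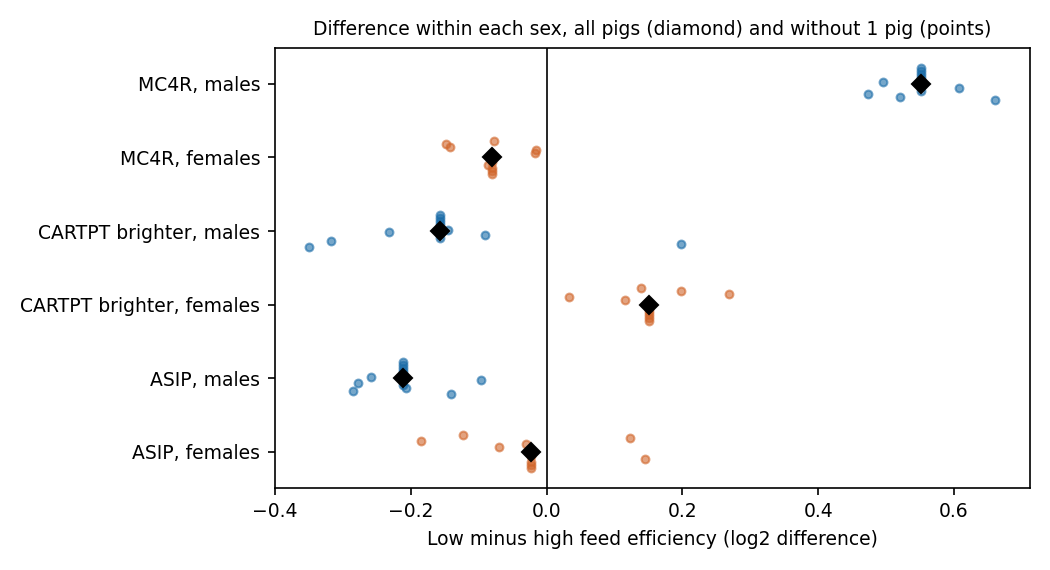
Low minus high feed efficiency difference in log2 signal (horizontal axis) within males and within females for MC4R, the brighter CARTPT probe set and ASIP. Diamonds stand for all pigs and points for the value with 1 of the 12 pigs left out. The MC4R points of males lie between 0.47 and 0.66, and 1 CARTPT point of males, without high-efficiency replicate 2, lies on the other side of 0 at 0.20.

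Between the sexes, MC4R averaged 4.77 ± 0.33 in the 6 males and 5.12 ± 0.12 in the 6 females (SD), while CARTPT and ASIP differed by less than their errors. The female minus male difference of MC4R was 0.34 ± 0.13 (SE; 95% interval 0.07 to 0.62), or 1.27-fold, with a limma adjusted p of 0.996, against 8 of 35791 probe sets called (0.0224%). It ranked 690 by p, with 1698 probe sets at an unadjusted limma p under 0.05. Exact permutation within feed efficiency groups gave p = 0.035, unadjusted and 1 of 8 such tests over all 12 pigs on these 4 probe sets. Exact permutation tests within each sex were run on them as well, where p cannot fall below 0.1. All males belonged to the lower run of identifiers, and with the run as a term or within the lower run the difference was 0.28 ± 0.19. The brighter and dimmer CARTPT probe sets differed by -0.04 ± 0.18 and -0.08 ± 0.16, and ASIP by -0.07 ± 0.13 (SE).

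The spread between pigs was compared between the feed efficiency groups as well. The SD of the brighter CARTPT probe set was 0.43 with high and 0.12 with low feed efficiency, a ratio of 3.53 (exact permutation p = 0.035, 924 splits, unadjusted), and 2.25% of tested probe sets had a ratio as far from 1. Without high-efficiency replicate 2 the log2 of that ratio was 0.64 in place of 1.82 (exact permutation p = 0.149). The p also rose above 0.05 without high-efficiency replicate 1, 3 or 5 or low-efficiency replicate 2, 4, 5 or 6, at log2 ratios of 1.68 to 1.93. In 9 of 14 alternatives the p was no longer under 0.05. The dimmer probe set had SDs of 0.36 and 0.15, a ratio of 2.50 (exact permutation p = 0.0996).

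For MC4R the SDs were 0.39 with high and 0.11 with low feed efficiency, a ratio of 3.56 (exact permutation p = 0.052, and under 0.05 without high-efficiency replicate 4 or 6 or low-efficiency replicate 1, 3 or 5). Here the distance between high-efficiency males and females made up the spread: with the mean of each sex in each group removed, the log2 ratio was 0.15 in place of 1.83 (exact permutation p = 0.825). ASIP had SDs of 0.24 and 0.21, a ratio of 1.18 (exact permutation p = 0.669).

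Covariation was examined for 9 pairs: the 3 pairs among CARTPT, MC4R and ASIP, and 6 pairs with genes of neighbouring roles. Each gene was taken by its brightest probe set, so CARTPT stands here for its brighter probe set alone. Over the 12 pigs no pair passed the Benjamini-Hochberg adjustment over the 9 (lowest adjusted permutation p = 0.752). CARTPT and MC4R had r = -0.339 (permutation p = 0.275) and rho = -0.147 (permutation p = 0.650) over 12 pigs. Without the 2 pigs farthest from the median of CARTPT r was 0.545, and without high-efficiency replicate 2 alone it was 0.248, so the sign of the pooled value rested on that pig. Within females r was -0.906 (exact permutation p = 0.015, adjusted over the 9 pairs within females alone 0.138) and rho -0.886 (exact permutation p = 0.033). Within males r was -0.286 (exact permutation p = 0.690). The female with the lowest CARTPT signal, 8.87, had the highest MC4R signal, 5.29, and the other 5 females spanned 9.11 to 9.34 and 4.95 to 5.21. The female lowest in MC4R, at 4.95, read 9.33 on the brighter but 8.52 on the dimmer CARTPT probe set. Covariation of MC4R with the dimmer probe set was not tested.

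CARTPT and ASIP gave r = -0.268 (permutation p = 0.418) and rho = -0.448 (permutation p = 0.147), and without the 2 farthest pigs r = -0.584. Within males rho was -0.943 (exact permutation p = 0.017, adjusted 0.150) while r was -0.423 (exact permutation p = 0.333). MC4R and ASIP gave r = -0.302 (permutation p = 0.341) and rho = -0.301 (permutation p = 0.340), -0.347 without the 2 farthest pigs, -0.432 within males and -0.089 within females. With PMCH, the precursor of melanin-concentrating hormone, CARTPT gave r = -0.319 (permutation p = 0.279) and rho = -0.573 (permutation p = 0.056), with r at -0.769 within females, -0.230 within males and -0.558 without the 2 farthest pigs. ASIP and MC3R, the other melanocortin receptor of the brain, gave r = 0.425 (permutation p = 0.169) and rho = 0.399 (permutation p = 0.201), with r at 0.728 within females, 0.073 within males and 0.036 without the 2 farthest pigs. The remaining 4 pairs lay closer to 0, with r of -0.198 for MC4R and AGRP, -0.107 for MC4R and SIM1, -0.069 for ASIP and AGRP and -0.0056 for CARTPT and TRH. Within females MC4R gave r = 0.738 with SIM1 (exact permutation p = 0.094, adjusted 0.219), against -0.106 within males. MC4R and AGRP gave 0.141 within females, -0.320 within males and -0.426 after the 4 group means were removed. Within females and males ASIP and AGRP gave 0.131 and -0.393, and CARTPT and TRH 0.088 and -0.032.

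**Figure D4:**
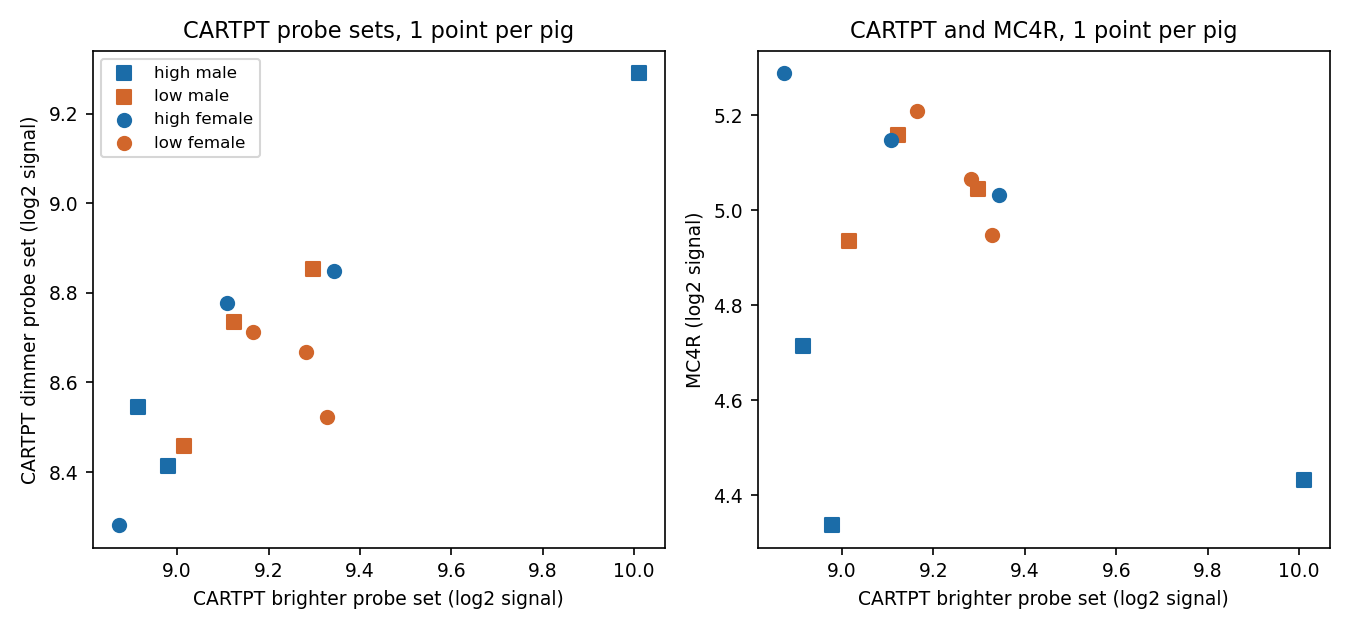
Left, the dimmer against the brighter CARTPT probe set, and right, MC4R against the brighter CARTPT probe set, both in log2 signal with 1 point per pig (squares male, circles female, blue high and orange low feed efficiency). The pig at 10.01 on both horizontal axes is high-efficiency male replicate 2, and the 6 females in the right panel run downwards (r = -0.906).

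The genes whose pattern over the 12 pigs was most like each of the 3 were looked up among 12144 others with a current symbol, each by its brightest tested probe set. For CARTPT they were UCP3, a mitochondrial carrier, at r = 0.919, RPL19 at 0.889, CUX1, a homeobox factor, at 0.884, MSI2, an RNA-binding protein, at 0.864 and USP12, a deubiquitinase, at 0.832. RPL19 is a ribosomal protein gene with 74 probe sets under its symbol, so the match of that probe set is doubtful. The most opposite were GPR52, an orphan receptor, at -0.888, ACTL7B at -0.882 and CRTAC1 at -0.881. Without high-efficiency replicate 2 the value for CUX1 was 0.542 and that for GPR52 -0.631. Of the genes compared, 0.214% had an r beyond 0.8 in either direction with CARTPT. Whether such shares, here or for MC4R and ASIP below, exceed what chance gives with 12 pigs was not tested.

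For MC4R that share was 0.618%. Its nearest genes were FAM57A at r = 0.914, RBM41, an RNA-binding protein, at 0.911, OTUD6B, a deubiquitinase, at 0.910, TAF4B, a subunit of the general transcription factor TFIID, at 0.899 and VPS13C, a lipid transfer protein, at 0.887. EXOG, a mitochondrial nuclease, stood opposite at -0.879, followed by SLC26A1, a sulfate transporter, at -0.851 and GCM2 at -0.845. These values include the low signals of the 3 high-efficiency males. After the 4 group means were removed, r was 0.752 for FAM57A, 0.618 for RBM41, 0.771 for TAF4B, 0.535 for VPS13C, -0.795 for EXOG and -0.727 for GCM2. It stayed at 0.873 for OTUD6B and -0.857 for SLC26A1.

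For ASIP the nearest genes were HOXB6, a homeobox factor, at r = 0.876, CA7, a carbonic anhydrase, at 0.874, NAIF1 at 0.865, RELB, an NF-kappaB subunit, at 0.838 and PRL, the pituitary hormone prolactin, at 0.834. FAM53B at -0.908, FCRLA, a B-cell gene, at -0.869 and STK4, a kinase of the Hippo pathway, at -0.851 stood opposite. The share of genes beyond 0.8 was 0.214%, as for CARTPT. PRL was 1 of the anterior pituitary markers, whose 7 named genes had a mean of 3.53, and the part of pituitary tissue in the ASIP signal was not tested.

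The 3 genes were set in their pathway with a list of 38 genes of the CART and melanocortin systems. Of these, 31 had a probe set and 29 were tested. The alpha-MSH precursor POMC, the receptors MC2R and MC5R, the convertase PCSK1 and PAM, PRKACA and OTP carried no probe set by symbol and are not analysed here. GPR160, proposed as a CART receptor, and BDNF, a growth factor downstream of MC4R, were among the dimmest 25% of probe sets, with means of 1.87 and 2.42.

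With low feed efficiency 11 of the 29 were higher and 18 lower, with a median difference of -0.0064 against -0.0023 over all tested probe sets. None passed (lowest limma adjusted p = 0.796), and 1, KCNJ13, had an unadjusted p under 0.05. Among the antagonists, AGRP read 4.69 ± 0.26 with high and 4.61 ± 0.32 with low feed efficiency (SD, n = 6 each), which differ by -0.07 ± 0.16 (SE). The MC3R difference was -0.05 ± 0.10 (SE) at 6.05 ± 0.22 and 6.01 ± 0.14, and that of MC1R, the receptor of pigment cells, -0.06 ± 0.08 at a mean of 2.50, close to the filter limit.

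None of the accessory and processing genes passed the test between the feed efficiency groups. MRAP2, which helps MC4R signal, had a mean of 7.16 and a difference of 0.05 ± 0.11, and ATRN (attractin, an accessory protein for agouti in mouse skin) a mean of 8.04 and a difference of -0.0064 ± 0.07. ATRNL1 differed by -0.07 ± 0.13 on its brightest probe set, but its 3 other tested probe sets averaged 0.26, so its direction depends on the probe set. MGRN1, a ubiquitin ligase that limits MC4R signalling, differed by -0.04 ± 0.09. PCSK2 and CPE, enzymes that cut and trim neuropeptide precursors, differed by -0.05 ± 0.08 and 0.02 ± 0.06, and PRCP, which degrades alpha-MSH, by -0.0023 ± 0.06 (SE throughout).

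MRAP, the accessory protein best known with the adrenal receptor MC2R, had a mean of 3.30, within the span of the background probe sets (1.30 to 7.49). Its differences had opposite signs in males and females. It read 3.12, 3.70 and 3.64 in high-efficiency and 3.48, 3.13 and 2.98 in low-efficiency males, and 3.01, 3.30 and 2.85 in high-efficiency and 3.42, 3.51 and 3.44 in low-efficiency females. The males overlapped, and the females did not, as was the case for 4.31% of tested probe sets in that direction. Its interaction was 0.69 ± 0.26 (SE; limma adjusted p = 0.783).

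KCNJ13, named after its values were seen, encodes a potassium channel (Kir7.1) through which MC4R acts in mice. Of its 2 probe sets only 1 was tested, with a mean of 3.97, within the span of the background probe sets (1.30 to 7.49). That probe set read 3.76 ± 0.36 with high and 4.17 ± 0.23 with low feed efficiency (SD, n = 6 each). The low-efficiency mean was higher by 0.41 ± 0.16 (SE; limma adjusted p = 0.796). In females the difference was 0.56 ± 0.23 (SE; limma adjusted p = 0.9995), without overlap, as for 4.31% of tested probe sets in that direction. KCNJ13 is also expressed in choroid plexus, and the mean of the 3 choroid plexus markers named was 5.63 to 5.94 in high-efficiency and 6.08 to 6.73 in low-efficiency females. Most of this came from TTR, the transthyretin gene, higher by 1.47, against 0.32 for FOLR1 and 0.01 for KL. Of the 3 markers, 0 lay above all background probe sets. The part of choroid plexus in the KCNJ13 difference was not tested.

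**Figure D5:**
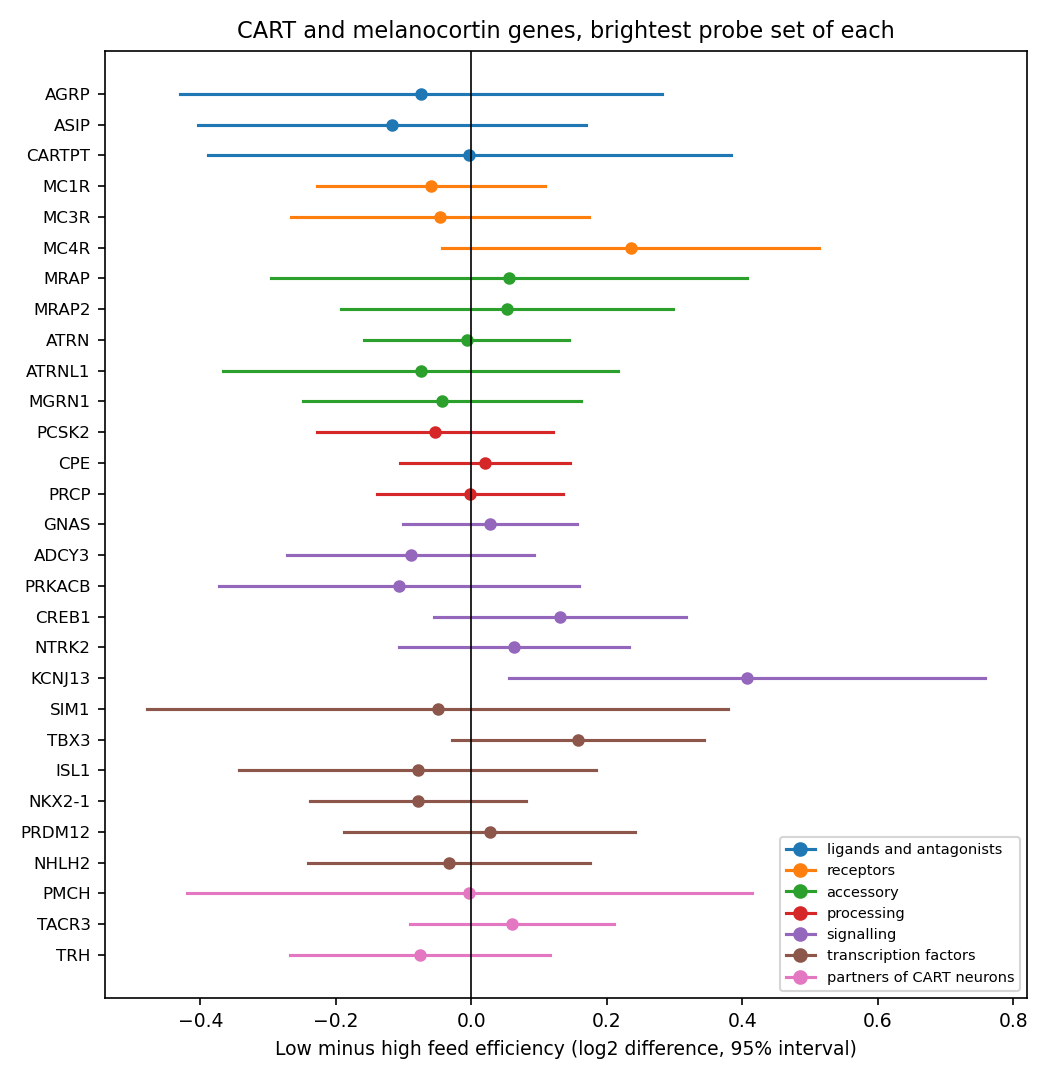
Low minus high feed efficiency difference in log2 signal (horizontal axis) of the 29 tested genes of the CART and melanocortin list, coloured by role, with 95% intervals from limma. The KCNJ13 interval alone lies clear of 0, before adjustment, and the MC4R interval runs from -0.04 to 0.51.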

How the data were processed

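Total RNA was hybridised to 1 porcine Affymetrix array per pig, per the labels' protocols. The deposited series table holds log2 signals of 47845 probe sets. GCOS 1.1.1 is named in the submitters' processing notes, while the sources used here do not name the normalization, the summary method or the genome build. Gene symbols come from the platform annotation.

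Values were used as deposited. After 123 control rows and the dimmest 25% of the other 47722 were left out, limma 3.58.1 in R 4.3.3 (lmFit, eBayes) was fitted to 35791 probe sets with Benjamini-Hochberg adjustment. Feed efficiency and sex were fitted together, and the interaction and within-sex values came from the 4 group means. Single values were permuted exactly, and correlations with 100000 resamples, or exactly for 6 pigs. The fits were tested on simulated data.

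The 3 genes, the gene lists and the marker lists were chosen with earlier results of these data known, and the MC4R pattern in males was among those results. Receptor, antagonist, accessory and processing genes were named from the pathway list, and similar genes as the 5 highest and 3 lowest in Pearson's r. Alternatives were quantile normalization, equal medians, filters, array weights, the identifier run, gene means and leaving out each pig. No sequences are printed, as none were used here. The number of arrays limits the precision.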

Additional observations from a re-analysis of the deposited data

Results flagged for a closer look

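The brighter CARTPT probe set of high-efficiency male replicate 2 read 10.01, and the nearest of the other 5 males read 9.30. The gap took 0.651 of the range of the 6 males, above Dixon's critical value of 0.625. Among 16 groups of values tested this was the only one past its critical value, and chance puts about 1 in 20 groups past it. The 16 groups share the same pigs, so they are not separate tests. Among the 6 high-efficiency pigs the gap of the same pig took 0.586 of the range, below the critical value. The dimmer CARTPT probe set of the same pig was also the highest of all 12, at 9.29, with a gap of 0.499 of the range of males, below the critical value.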

How the results depend on the processing

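The MC4R difference kept its sign in every alternative run, at 0.17 to 0.36 for feed efficiency and 0.47 to 0.66 in males. The interaction ran from -0.75 to -0.55 and the sex difference from 0.27 to 0.41. In males leaving out 1 pig could not change the sign, as the groups did not overlap. The sex difference of 0.34 had p = 0.035 by exact permutation, unadjusted, an alternative chosen after seeing the data. Its limma p was also under 0.05 before adjustment. No paired analysis was possible because the labels give each pig its own identifier and no number shared between the groups. Differences near 0 changed sign. The feed efficiency difference of the brighter CARTPT probe set was 0.019 with equal array medians and 0.017 with array weights, and -0.072 to 0.17 without 1 pig, while the dimmer ran from -0.12 to 0.089. Probe sets called for feed efficiency were 0 to 1 without 1 pig, the 1 appearing without low-efficiency replicate 2. Probe sets called for sex were 2 with the dimmest 50% left out, 5 with the run as a term, 4 in the lower run and 0 with gene means. The sex difference of ASIP was 0.15 with the run as a term and in the lower run, and -0.13 to 0.015 without 1 pig, with -0.11 to 0.13 and -0.15 to 0.042 for the brighter and dimmer CARTPT probe sets. In the lower run the interaction was -0.19 for the dimmer CARTPT probe set and -0.057 for ASIP, and without 1 pig it ran from -0.20 to 0.23 for the dimmer and -0.047 to 0.50 for the brighter CARTPT probe set. In females the dimmer CARTPT probe set differed by 0.0059 after another quantile normalization and 0.025 with array weights, and by -0.18 to 0.10 without 1 pig, where ASIP ran from -0.19 to 0.14. In males the brighter CARTPT probe set ran from -0.35 to 0.20 and the dimmer from -0.24 to 0.20 without 1 pig.

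The log2 SD ratio was 1.84 for the brighter CARTPT probe set after quantile normalization (exact permutation p = 0.069) and 1.31 for the dimmer with sex means removed (exact permutation p = 0.045). Without 1 pig it ran from 0.64 to 2.26 and 0.72 to 1.60 for these, from 1.65 to 2.09 for MC4R and from -0.37 to 0.50 for ASIP. The r of CARTPT and MC4R was 0.545 without the 2 farthest pigs and -0.650 to 0.248 without 1 pig. For MC4R and ASIP it was 0.061 after the 4 group means were removed. CARTPT and TRH gave 0.095 after that step, 0.0064 after quantile normalization, 0.238 without the 2 farthest pigs and -0.162 to 0.085 without 1. Without the 2 farthest pigs MC4R gave 0.412 with SIM1 and 0.141 with AGRP, and without 1 pig -0.221 to 0.149 and -0.315 to 0.023. ASIP and AGRP ran from -0.256 to 0.086. The cause of these changes was not tested. MC4R and ASIP lie within the span of the background probe sets, so background may limit how small a change either probe set can show.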
